A study of Mus musculus with 11 samples.

Results

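Nuclear receptors are transcription factors whose activity is set by small lipophilic ligands such as steroids, thyroid hormone, retinoids, fatty acids and oxysterols, and the PGC-1 proteins are coactivators that dock on them. Their mRNA levels were examined here for 38 genes in dystrophic and antisense-treated mouse muscle: 36 receptors and the PGC-1 coactivators *Ppargc1a* and *Ppargc1b*. A member is read through the probe set of the array that carries its name in the deposited symbol column, and where a gene had more than 1, that of highest signal was taken. All 38 members, of 21759 gene symbols in the table, had a probe set, and the probes of all 38 were annotated as matching a single transcript. In fast and oxidative muscle fibres this network is known for setting the capacity for fatty acid oxidation and mitochondrial biogenesis. PGC-1α coactivates the PPARs and the oestrogen-related receptors, many receptors bind DNA as partners of a retinoid X receptor, and the NR4A receptors are induced rapidly by contraction and adrenergic stimulation.

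RNA was measured in the tibialis anterior (TA), a fast muscle of the lower hind limb, of 11 male mice at 14 weeks of age. The control group, C57, comprised 3 untreated wild-type mice of strain C57/B10. The *mdx* group comprised 4 untreated C57/Bl10ScSn-Dmdmdx/J mice, which carry a nonsense mutation in *Dmd* and lack dystrophin in their fibres. The study used the tissues of its proteomics experiment and added further C57 and *mdx* samples for the arrays. Which samples were added is not given. The treated group comprised 4 *mdx* mice that received Pip6e-PMO at 12.5 mg/kg into a tail vein at 12 weeks, once and in saline. Pip6e-PMO is a cell-penetrating peptide joined to a morpholino oligomer that causes the mutated *Dmd* exon to be skipped, and no group given saline or a control oligomer was analysed here. RNA from frozen sections of the muscle belly was hybridised to Affymetrix Mouse Gene ST 1.1 arrays, with a separate array for every mouse, so each value stands for all cells in the section. In such bulk tissue, fewer cells of a type and less RNA per cell cannot be told apart.

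The values are RMA intensities, given here as log2, so that a difference of 1 is a doubling. A probe set was tested when its mean intensity reached 30 in at least 1 group, and it was called when limma's Benjamini-Hochberg adjusted p was under 0.05 over all 14494 probe sets tested. With 3 or 4 arrays in a group, their number limits the precision. The tissue label names a fast muscle, and the fast-fibre markers had a summed intensity between 48084 and 51684 on every array. That sum does not tell this fast muscle from others. Of these 7 markers 0 were called in any comparison, with limma or with the *t*-test of the methods, and 0, 0 and 1 had an unadjusted p under 0.05 with limma between *mdx* and C57, treated and *mdx*, and treated and C57 mice. *Dmd* had a log2 intensity of 5.77 to 5.87 in C57 mice, of 4.60 to 5.82 in the *mdx* mice and of 5.51 to 6.34 in those treated, and was called in no comparison. The mutation changes a codon, so the mRNA level does not check the labels. Treated mouse 2 stood apart from the others: leaving it out raised the calls between treated and *mdx* mice from 1052 higher and 563 lower to 2358 and 1745. Leaving out treated mouse 1, 3 or 4 lowered these calls to 351 and 139, 255 and 125, and 186 and 83. Without *mdx* mouse 3 or 4 they were 345 and 214, and 237 and 117. Each member called in the treated group, and the counts of members, are also given without treated mouse 2. The study reports the lowest exon skipping, and the lowest dystrophin by mass spectrometry, in its treated sample T2. By its number, T2 is taken to be this mouse, and the part of this in the counts was not tested. Macrophage markers were higher in *mdx* (6 of 7 called, with a summed intensity of 1049 to 1482 in C57 mice, 2806 to 4437 in the *mdx* mice and 2189 to 2972 in those treated). Adipocyte markers were lower in treated mice than in *mdx* (5 of 6 called, summed intensity 1383 to 1831, 1200 to 2144 and 1175 to 1335 in the same order). That count was 0 without *mdx* mouse 3 or 4 or treated mouse 3 or 4. The part of these cells in the results below was not tested.

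Upstream sequence is shown for 4 members whose level differed from C57 in at least 1 group and whose promoter window holds letters that nuclear receptors or cyclic AMP-responsive factors are known to bind. The windows are from RefSeq on GRCm38.p6 and run from 250 bases before an annotated start to 50 after it. The search below covered windows of 35 of the 38 members, 55 in number, and none of *Thra*, *Ppargc1b* or *Nr3c1*. Each stretch is written 5′ to 3′ on the strand of its gene, in lower case with the motif in capitals, and ends before the start. All 4 lie within the span of their gene, upstream of an internal start. The *Nr4a1* stretch is chr15:101266606-101266815 on the plus strand, and its capitals mark the CRE-like letters TGCGTCA. The *Rarb* stretch is chr14:16575497-16575566 on the minus strand, and its capitals mark the half-sites GGTTCA and AGTTCA with 5 bases between them, the arrangement that retinoic acid receptors are known to bind with a retinoid X receptor. The *Rxrg* stretch is chr1:167618145-167618204 on the plus strand, and its capitals mark AAAGGTCA, the sequence known to be bound by single NR4A molecules. The *Nr6a1* stretch is chr2:38784546-38784625 on the minus strand, and its capitals mark the half-site AGGTCA, which reads TGACCT here because both copies lie on the opposite strand.
Nr4a1: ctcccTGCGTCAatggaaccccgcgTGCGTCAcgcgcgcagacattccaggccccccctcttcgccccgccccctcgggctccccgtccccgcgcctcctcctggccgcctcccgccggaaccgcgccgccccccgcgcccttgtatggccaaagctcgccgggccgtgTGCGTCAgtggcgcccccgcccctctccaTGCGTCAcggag
Rarb: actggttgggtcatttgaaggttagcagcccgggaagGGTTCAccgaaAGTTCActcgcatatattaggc
Rxrg: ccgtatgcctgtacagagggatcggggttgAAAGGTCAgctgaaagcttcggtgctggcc
Nr6a1: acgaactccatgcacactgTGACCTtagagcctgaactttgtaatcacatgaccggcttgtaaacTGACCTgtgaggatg

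Both strands of the 32851 mouse windows outside chromosome 18 were searched for the same letters, and the shares below are of these windows. TGCGTCA occurred in 2.12% of them, and 1 window, that of *Nr4a1*, held 4 copies or more. Its copies begin 235, 215, 71 and 42 bases before the start. The *Nr4a1* window was chosen for holding these letters, so its match was not a test. The *Rarb* repeat with exactly 5 bases inside occurred in 2 windows, or 0.00609%, and begins 53 bases before the start. The letters searched were those of the known *Rarb* repeat itself, so its match in *Rarb* was fixed in advance. AAAGGTCA, which contains AGGTCA, occurred in 1.51% of all windows and in 2 member windows, those of *Rxrg*, 90 bases before the start, and *Rxra*. AGGTCA itself occurred in 16.3% of all windows and in 18.2% of the member windows, which belong to 9 genes. The palindromic cyclic AMP response element TGACGTCA occurred in 1.79% of all windows and in 1 member window, of *Nr6a1*. The E-box CACGTG, read by clock factors, occurred in 7.15% of all windows and in 5 member windows. These matches describe letters in a window, not sites shown to be occupied. *Ppargc1b* and *Nr3c1* lie on the chromosome left out of this search, so nothing is shown about their upstream letters.

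Of the 38 members, 29 reached the intensity for testing, and 10 of them were called in at least 1 comparison. The 9 that were not tested were *Esr2* and *Pgr*, the oestrogen receptor β and progesterone receptor, *Vdr*, the vitamin D receptor, *Nr1h4*, *Nr1i2* and *Nr1i3*, the bile acid and xenobiotic receptors FXR, PXR and CAR, and *Nr2f1*, *Nr5a2* and *Hnf4a*. Their log2 intensity lay between 2.73 and 4.81 on every array, with no group mean above 22.0 on the linear scale. Several of these are best known from liver, gut or reproductive tissue. A signal this low does not show that the mRNA is absent.

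Between *mdx* and C57 mice, 3 of the 29 tested members were called, or 10.3%, against 12.0% of all probe sets tested. All 3 were lower in *mdx*: *Ppara*, *Esrrb* and *Nr4a1*. None was called higher, while 7.06% of all probe sets were called higher and 4.96% lower. The share of members called was near the background. Differences above 0 numbered 11 and those below 0 numbered 18, with a median of -0.10 against -0.01 over all probe sets. With limma, an unadjusted p under 0.05 was found for 10 of the 29 tested members and for 24.9% of all probe sets. When each array was centred on its median, the calls over all probe sets moved from 1023 higher and 719 lower to 881 and 892.

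Between treated and *mdx* mice, 3 members were called, again 10.3%, against 11.1% of all probe sets. All 3 were higher in treated mice: *Esr1*, *Nr3c1* and *Nr2f2*. The background was 7.26% called higher and 3.88% lower, so the share of members was again near it. The median difference was 0.08, against 0.02 over all probe sets. With limma, 8 of the 29 tested members had an unadjusted p under 0.05, as did 31.5% of all probe sets. Without treated mouse 2, 10 members were called in this comparison, or 34.5%, against 28.3% of all probe sets in the same setting.

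Between treated and C57 mice, 8 members were called, or 27.6%, against 24.6% of all probe sets, again a share near the background. *Ppargc1a*, *Esr1*, *Nr3c1* and *Rarb* were higher in treated mice, against a background of 15.6% called higher. *Esrrb*, *Rxrg*, *Nr6a1* and *Nr4a1* were lower, against 8.96%. The median difference was -0.05, against 0.00 over all probe sets, and without treated mouse 2 the count was 11, or 37.9%, against 34.0% of all probe sets in the same setting. With median centring the calls over all probe sets moved from 2265 higher and 1299 lower to 1960 and 1875, and with repeated quantile normalization to 1736 and 1863. The 3 comparisons share their groups, so their values are set side by side and not counted as separate evidence.

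**Figure D1:**
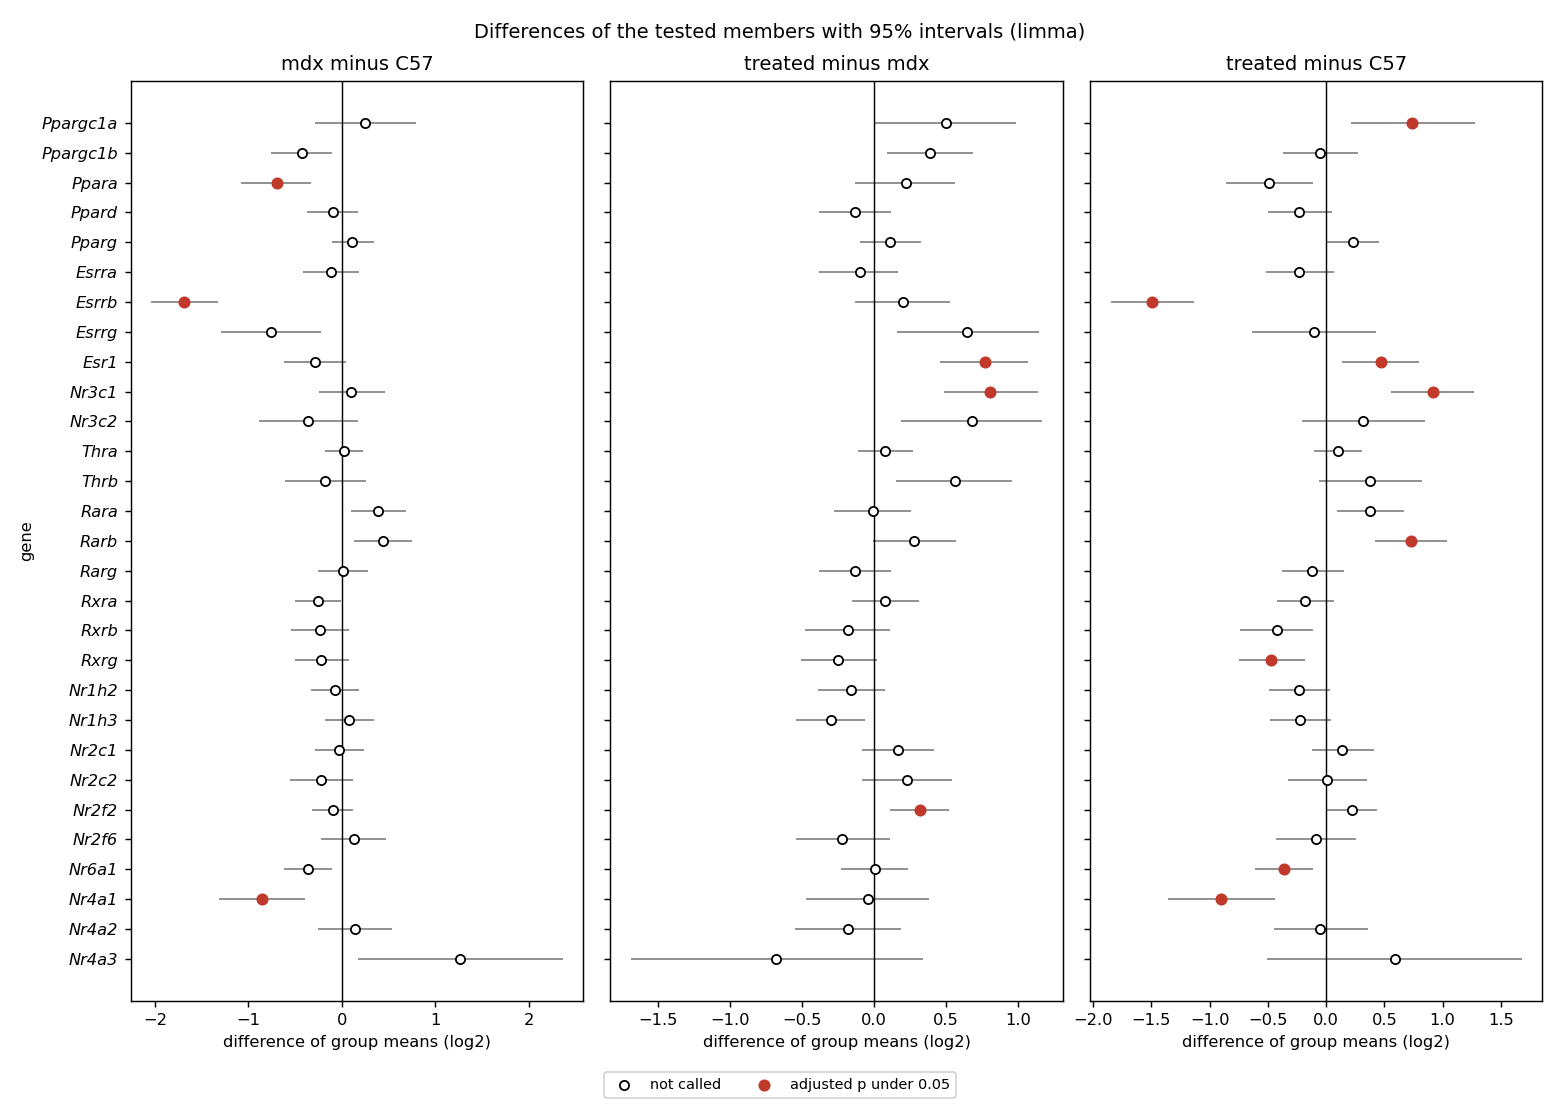
Difference of group means on the log2 scale (horizontal axis) for each of the 29 tested members (vertical axis) in the 3 comparisons, with 95% intervals from limma; filled points have an adjusted p under 0.05. The 3 filled points between *mdx* and C57 lie below 0, the 3 between treated and *mdx* above 0, and those between treated and C57 fall 4 on each side.

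The PGC-1 coactivators are described first, since they act through the receptors that follow. *Ppargc1a* encodes PGC-1α, the coactivator best known for driving mitochondrial biogenesis in muscle. Its log2 intensity was 7.15, 7.55 and 7.14 in C57, 7.77, 7.66, 7.68 and 7.01 in *mdx*, and 8.68, 7.65, 7.71 and 8.06 in treated mice. Every treated mouse was above every C57 mouse, while treated and *mdx* mice overlapped, and treated mouse 1 was the highest of all. Treated mice differed from C57 by 0.74 ± 0.25 (SE, limma, adjusted p = 0.0453), a 1.68-fold difference, and by 0.87 without treated mouse 2. This call was lost in 15 of 22 alternatives, including 0.53 without treated mouse 1 (adjusted p = 0.0902). The difference of 0.50 ± 0.23 from *mdx* was not called by limma (adjusted p = 0.16), nor was that of 0.25 ± 0.25 between *mdx* and C57 (adjusted p = 0.6).

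The array carries a second *Ppargc1a* probe set, of lower signal. It read 6.62, 6.86 and 6.87 in C57, 7.41, 7.42, 6.88 and 6.62 in *mdx*, and 8.20, 7.46, 7.85 and 8.22 in treated mice. On this probe set all 4 treated mice were above all *mdx* and all C57 mice. Treated mice were 0.85 ± 0.20 above *mdx* (limma, adjusted p = 0.0272) and 1.15 ± 0.22 above C57 (adjusted p = 0.00413). Without treated mouse 2 the difference from *mdx* was 1.01 (adjusted p = 0.00522), and without treated mouse 4 it was 0.75 (adjusted p = 0.0809). The mean of both probe sets gave 0.67 (adjusted p = 0.0475). The probe sets thus fell on different sides of the threshold for treated against *mdx* mice, and had the same sign.

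*Ppargc1b* encodes PGC-1β, which shares many receptor partners with PGC-1α. It read 7.56, 7.59 and 7.71 in C57, 7.03, 6.95, 7.44 and 7.32 in *mdx*, and 7.81, 7.73, 7.33 and 7.42 in treated mice. Each *mdx* mouse was below each C57 mouse, and the treated mice spanned the upper *mdx* and the C57 values. The difference of -0.43 ± 0.15 between *mdx* and C57 was not called by limma (adjusted p = 0.0804), and neither was that of 0.39 ± 0.14 between treated and *mdx* mice (adjusted p = 0.0811) or that of -0.05 ± 0.15 between treated and C57 mice (adjusted p = 0.835).

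**Figure D2:**
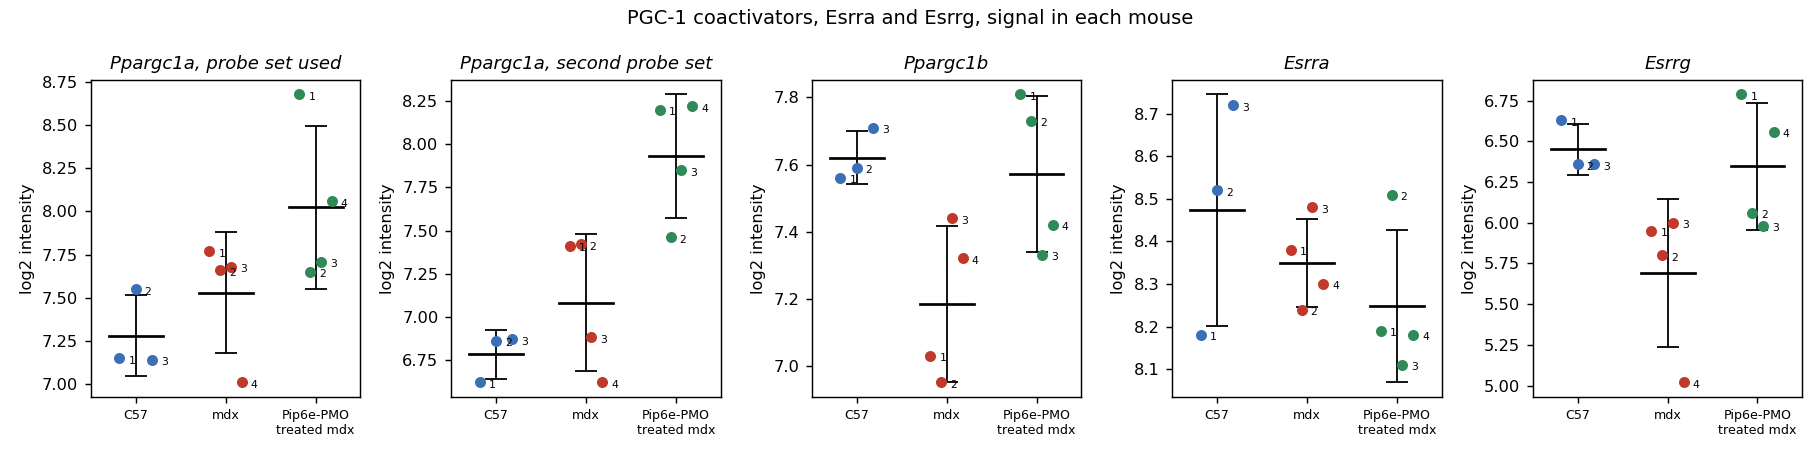
Log2 intensity (vertical axis) in each of the 11 mice by group (horizontal axis) for both *Ppargc1a* probe sets, *Ppargc1b*, *Esrra* and *Esrrg*; points carry mouse numbers, long bars are group means and error bars SD (n = 3, 4 and 4). On the second *Ppargc1a* probe set the treated mice, from 7.46 to 8.22, lie above all *mdx* mice, and on the probe set used they overlap.

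Among the PPARs, *Ppara* encodes the fatty acid-activated receptor that drives the enzymes of β-oxidation. Its log2 intensity was 7.20, 7.84 and 7.42 in C57, 6.75, 6.66, 7.07 and 6.65 in *mdx*, and 7.15, 6.72, 6.90 and 7.23 in treated mice. All *mdx* mice were below all C57 mice, although *mdx* mouse 3 came close, and the treated mice overlapped both groups, with mice 1 and 4 the higher. *Ppara* was 1.63-fold lower in *mdx*, a log2 difference of -0.70 ± 0.17 (limma, adjusted p = 0.0186). Without C57 mouse 2 the difference was -0.53 (adjusted p = 0.0956), and without *mdx* mouse 2 it was -0.66 (adjusted p = 0.0532). The call was also lost with the *t*-test of the methods (adjusted p = 0.112). Treated mice differed from *mdx* by 0.22 ± 0.16 (adjusted p = 0.37) and from C57 by -0.49 ± 0.17 (adjusted p = 0.0559), neither called. *Ppard*, the isoform most associated with oxidative fibres, and *Pparg*, the adipocyte isoform, had differences between -0.23 and 0.23 in the 3 comparisons, and limma called none.

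The oestrogen-related receptors are orphan receptors that need no ligand and rely on PGC-1 for activity. *Esrrb*, which encodes ERRβ, read 5.54, 5.99 and 6.22 in C57, 4.14, 4.16, 4.58 and 4.04 in *mdx*, and 4.39, 4.47, 4.30 and 4.55 in treated mice. The C57 mice were nearly 1 log2 unit or more above every dystrophic mouse, and the *mdx* and treated mice overlapped. *Esrrb* was 3.22-fold lower in *mdx* than in C57, a log2 difference of -1.69 ± 0.16 (limma, adjusted p = 5.7e-05), and 2.81-fold lower in treated mice, a difference of -1.49 ± 0.16 (adjusted p = 0.000183, -1.5 without treated mouse 2). Treated minus *mdx* was 0.20 ± 0.15 (adjusted p = 0.397, 95% interval -0.13 to 0.53). Mean intensity was 61.5 in C57 but 19.0 in *mdx* and 21.6 in treated mice, under the 30 that a group had to reach, so signal near background limits what the fold can show. Both calls held in all 20 alternatives that tested it.

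*Esrrg*, whose product ERRγ is enriched in oxidative muscle, read 6.63, 6.36 and 6.36 in C57, 5.95, 5.80, 6.0 and 5.02 in *mdx*, and 6.79, 6.06, 5.98 and 6.56 in treated mice. Each *mdx* mouse was below each C57 mouse, and *mdx* mouse 4 was lowest, as it was for *Ppargc1a*. The difference between *mdx* and C57 was -0.76 ± 0.25 (limma, adjusted p = 0.0673), that between treated and *mdx* mice 0.65 ± 0.23 (adjusted p = 0.077) and that between treated and C57 mice -0.10 ± 0.25 (adjusted p = 0.783), none called. Without treated mouse 2 that between treated and *mdx* mice became 0.75 (adjusted p = 0.0378). *Esrra*, for ERRα, the main PGC-1α partner on mitochondrial genes, differed by -0.12, -0.10 and -0.23 and was not called.

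Of the 3 members called higher in treated mice than in *mdx*, *Esr1* and *Nr3c1* are steroid hormone receptors. *Esr1* encodes oestrogen receptor α. It read 7.87, 7.92 and 7.57 in C57, 7.44, 7.55, 7.41 and 7.57 in *mdx*, and 8.61, 7.90, 8.17 and 8.36 in treated mice. All treated mice were above all *mdx* mice, while treated mouse 2 fell among the C57 mice. Treated mice were 0.77 ± 0.14 above *mdx*, 1.70-fold (limma, adjusted p = 0.0118, 0.89 without treated mouse 2), and 0.47 ± 0.15 above C57 (adjusted p = 0.0399, 0.59 without treated mouse 2). The call against C57 was lost in 15 of 21 alternatives, and that against *mdx* in 1, the *t*-test of the methods. The difference between *mdx* and C57 was -0.29 ± 0.15 (adjusted p = 0.257).

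*Nr3c1* encodes the glucocorticoid receptor, the target of the steroids given to patients with Duchenne muscular dystrophy. Its log2 intensity was 6.39, 6.24 and 6.12 in C57, 6.65, 6.58, 6.17 and 6.01 in *mdx*, and 7.13, 6.94, 7.21 and 7.39 in treated mice. The treated mice were above all 7 other mice, and the *mdx* and C57 mice overlapped. Treated mice were 0.81 ± 0.15 above *mdx*, 1.76-fold (limma, adjusted p = 0.0123, 0.89 without treated mouse 2), and 0.92 ± 0.16 above C57, 1.89-fold (adjusted p = 0.00268, 0.99 without treated mouse 2). The difference of 0.10 ± 0.16 between *mdx* and C57 was not called (adjusted p = 0.77). The call against C57 held in all 21 alternatives, and that against *mdx* was lost with the *t*-test of the methods (adjusted p = 0.0986).

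*Nr3c2*, for the mineralocorticoid receptor, which also binds glucocorticoids, read 6.15, 6.06 and 5.76 in C57, 5.67, 5.73, 5.64 and 5.49 in *mdx*, and 6.92, 5.53, 6.34 and 6.46 in treated mice. Treated mouse 2 was at the level of the *mdx* mice and the other treated mice were above them all. The difference of 0.68 ± 0.23 between treated and *mdx* mice was not called (limma, adjusted p = 0.0688), and without treated mouse 2 it was 0.94 (adjusted p = 0.00288). Those between *mdx* and C57 and between treated mice and C57 were -0.36 and 0.32.

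The thyroid hormone receptors were called in no comparison. *Thra*, the main isoform of muscle, lay between 10.10 and 10.43 on all 11 arrays. *Thrb* read 5.50 to 5.68 in C57 and 5.19 to 5.62 in *mdx*, and 6.44, 5.53, 5.62 and 6.22 in treated mice, so that treated mice 1 and 4 were the highest. Treated minus *mdx* was 0.56 ± 0.19 for *Thrb* (limma, adjusted p = 0.0705), and 0.70 without treated mouse 2 (adjusted p = 0.0147).

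**Figure D3:**
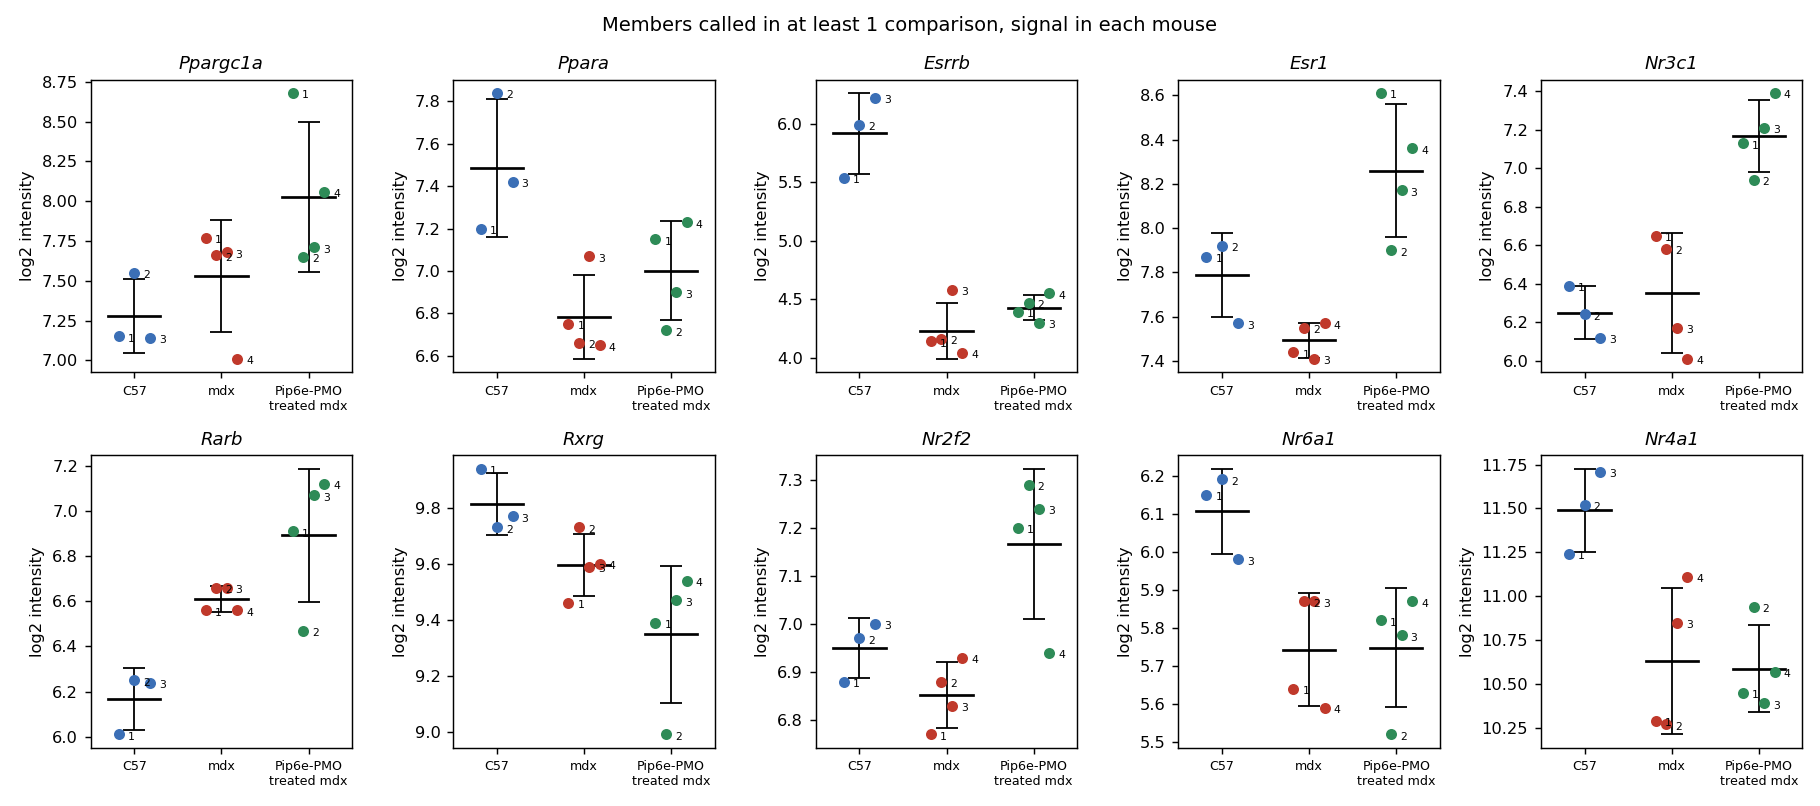
Log2 intensity (vertical axis) in each mouse by group (horizontal axis) for the 10 members called in at least 1 comparison; points carry mouse numbers, long bars are group means and error bars SD (n = 3, 4 and 4). For *Nr3c1* the treated mice, from 6.94 to 7.39, lie above all others, and for *Esrrb* and *Nr4a1* the C57 mice do.

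Among the retinoic acid receptors, *Rarb*, itself known as a target of retinoic acid through the repeat printed above, read 6.01, 6.25 and 6.24 in C57, 6.56, 6.66, 6.66 and 6.56 in *mdx*, and 6.91, 6.47, 7.07 and 7.12 in treated mice. All 8 dystrophic mice, treated or not, were above all C57 mice, and treated mouse 2 was the lowest of the 8. Treated mice were 0.73 ± 0.14 above C57, 1.65-fold (limma, adjusted p = 0.00465, 0.87 without treated mouse 2), a call lost with the *t*-test of the methods (adjusted p = 0.0766). The difference of 0.44 ± 0.14 between *mdx* and C57 was not called (adjusted p = 0.0658), but passed with only those groups in the fit (adjusted p = 0.0159). Treated minus *mdx* was 0.28 ± 0.13 (adjusted p = 0.166), or 0.42 without treated mouse 2 (adjusted p = 0.00928). *Rara* read 7.73 to 7.96 in C57 mice, 8.09 to 8.53 in the *mdx* mice and 8.05 to 8.51 in those treated, so that neither dystrophic group overlapped C57, yet limma called neither difference from C57 (0.39, adjusted p = 0.086, and 0.38, adjusted p = 0.0579). *Rarg* differed by at most 0.13 either way.

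The retinoid X receptors are the partners with which the PPARs, LXRs, retinoic acid and thyroid hormone receptors bind DNA. *Rxrg*, the muscle-enriched isoform, read 9.94, 9.73 and 9.77 in C57, 9.46, 9.73, 9.59 and 9.60 in *mdx*, and 9.39, 8.99, 9.47 and 9.54 in treated mice. All treated mice were below all C57 mice, with treated mouse 2 lowest, and *mdx* overlapped both. Treated mice were 1.38-fold lower than C57, a log2 difference of -0.47 ± 0.13 (limma, adjusted p = 0.0243), or -0.35 without treated mouse 2 (adjusted p = 0.0216). Leaving out any C57 mouse ended this call, with an adjusted p of up to 0.0773, as did the *t*-test (adjusted p = 0.123). *Rxra* and *Rxrb* were not called. The largest of their differences was -0.42 ± 0.15 for *Rxrb* in treated mice against C57 (adjusted p = 0.0524), and -0.54 without treated mouse 2 (adjusted p = 0.00775).

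The oxysterol receptors *Nr1h2* and *Nr1h3*, LXRβ and LXRα, were not called. *Nr1h3* was lower in every treated mouse, at 7.17 to 7.44, than in any *mdx* mouse, at 7.51 to 7.75, with a difference of -0.30 ± 0.11 (limma, adjusted p = 0.0909), and -0.34 without treated mouse 2 (adjusted p = 0.0464). LXRα is known for its expression in macrophages. Of 7 tested macrophage markers, 2 were called lower and 1 higher in treated than in *mdx* mice. With 1 mouse left out, 0 to 2 were lower and 0 to 1 higher. Their part was not tested.

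Of the orphan receptors, *Nr2f2* encodes COUP-TFII, known for its role in veins and mesenchyme. It read 6.88, 6.97 and 7.0 in C57, 6.77, 6.88, 6.83 and 6.93 in *mdx*, and 7.20, 7.29, 7.24 and 6.94 in treated mice. Treated mice 1, 2 and 3 stood above all others, and treated mouse 4 lay just above the highest *mdx* mouse. The difference of 0.32 ± 0.09 between treated and *mdx* mice, 1.24-fold, was only just called (limma, adjusted p = 0.0485, 0.27 without treated mouse 2, adjusted p = 0.0488) and was lost in 16 of 21 alternatives. Endothelial markers were higher in the same comparison for 2 of 5 genes, *Pecam1* by 0.78 and *Tek* by 0.97, named after their values were seen. Their summed intensity ranged from 1868 to 2365 in *mdx* and from 2205 to 2993 in treated mice, the count was 0 without *mdx* mouse 3 or 4 or treated mouse 1, 3 or 4, and their part was not tested.

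*Nr6a1* encodes the germ cell nuclear factor. It read 6.15, 6.19 and 5.98 in C57, 5.64, 5.87, 5.87 and 5.59 in *mdx*, and 5.82, 5.52, 5.78 and 5.87 in treated mice. All 8 dystrophic mice were below all C57 mice. The same difference was on different sides of the threshold in the 2 groups: -0.36 ± 0.12 in *mdx* (limma, adjusted p = 0.0626) and -0.36 ± 0.12 in treated mice (adjusted p = 0.041), the latter -0.28 and not called without treated mouse 2 (adjusted p = 0.059). The call in treated mice was lost in 10 of 20 alternatives, among them leaving out any C57 or any treated mouse, with an adjusted p of up to 0.132. *Nr2c1* and *Nr2c2*, the testicular receptors TR2 and TR4, and *Nr2f6* differed by at most 0.23 either way and were not called, though without treated mouse 2 limma called *Nr2c2* higher (0.36, adjusted p = 0.0478) and *Nr2f6* lower (-0.37, adjusted p = 0.0284) in treated than in *mdx* mice.

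The NR4A receptors have no known classical ligand and are controlled through their own induction. *Nr4a1* encodes NUR77, which regulates glucose and lipid genes in fast muscle. Its log2 intensity was 11.24, 11.52 and 11.71 in C57, 10.29, 10.27, 10.85 and 11.11 in *mdx*, and 10.45, 10.94, 10.39 and 10.57 in treated mice. All dystrophic mice were below all C57 mice, and *mdx* mice 3 and 4 were nearest to them. *Nr4a1* was 1.82-fold lower in *mdx* than in C57, a log2 difference of -0.86 ± 0.21 (limma, adjusted p = 0.0202), and 1.87-fold lower in treated mice, a difference of -0.90 ± 0.21 (adjusted p = 0.0109, -1.02 without treated mouse 2). The call against C57 was lost without C57 mouse 3 (adjusted p = 0.054) and with the *t*-test (adjusted p = 0.0504). The difference between treated and *mdx* mice was -0.04 ± 0.20, with a 95% interval of -0.47 to 0.38. The call in *mdx* was lost with the *t*-test of the methods (adjusted p = 0.145) and without C57 mouse 2 or 3 or *mdx* mouse 1 or 2, where the adjusted p was up to 0.092 and the difference between -0.84 and -0.74. The *Nr4a1* window is the one printed above with 4 copies of TGCGTCA.

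*Nr4a3*, for NOR-1, read 4.93, 6.13 and 5.59 in C57, 5.66, 7.44, 7.89 and 6.27 in *mdx*, and 6.14, 6.12, 5.36 and 6.93 in treated mice. The spread within groups, with an SD of 1.03 in *mdx*, was the widest of the 29 tested members, and *mdx* mice 2, 3 and 4 stood above all C57 mice. The difference of 1.26 ± 0.50 between *mdx* and C57 was not called (limma, adjusted p = 0.137), though without *mdx* mouse 1 it was 1.65 (adjusted p = 0.0448). *Nr4a2*, for NURR1, lay between 4.80 and 5.75 and was not called.

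**Figure D4:**
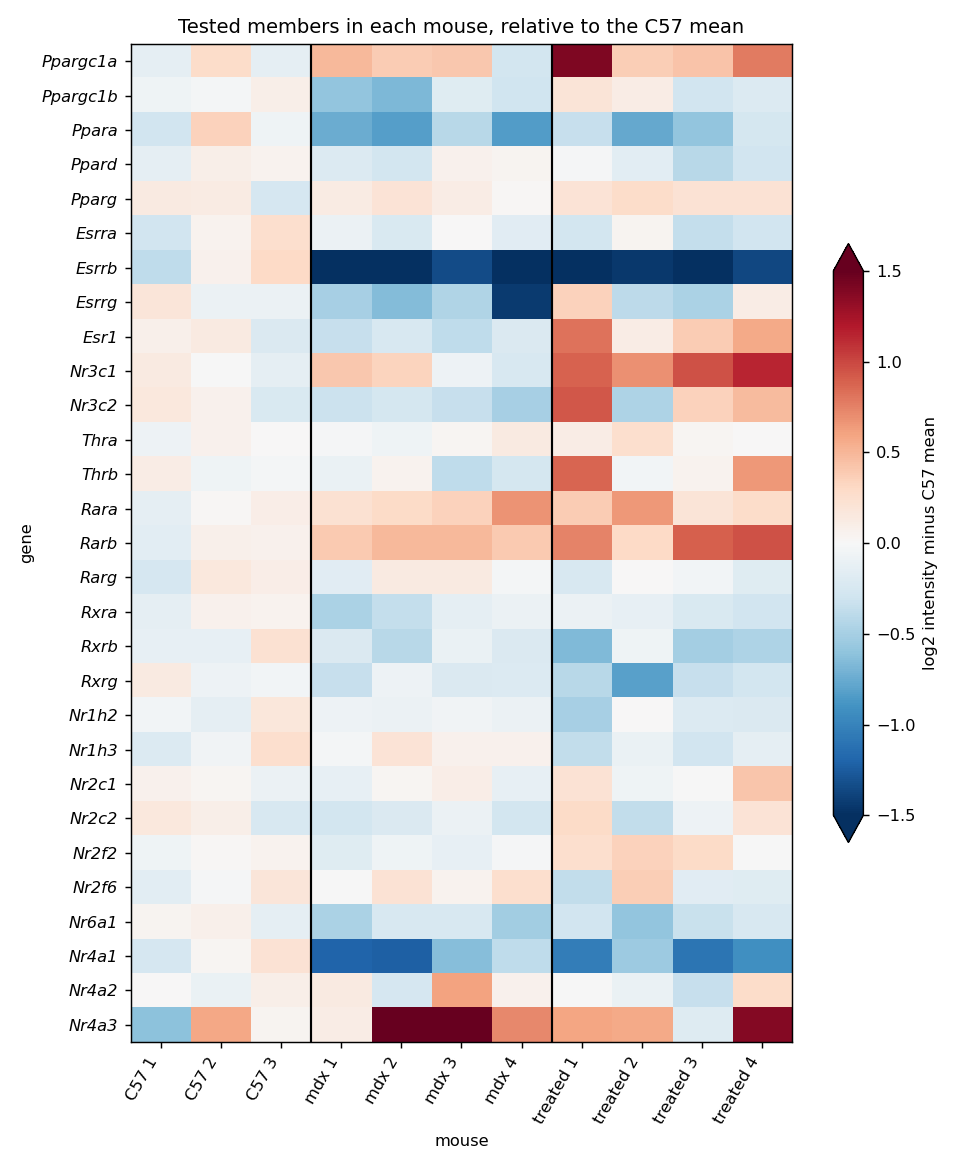
Log2 intensity minus the C57 mean (colour, from -1.5 to 1.5 and clipped beyond) for the 29 tested members (vertical axis) in the 11 mice (horizontal axis), with lines between the groups. *Esrrb* and *Nr4a1* are low in all 8 dystrophic mice, and treated mouse 2 is nearer to the C57 mean than the other treated mice for *Esr1*, *Nr3c1* and *Rarb*.

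Genes that the receptors act on were read from lists that hold no member. Unlike those of the members, some list probe sets were not annotated as matching a single transcript. Among them were those of *Cycs*, *Hadhb*, *Fabp3* and the coregulator *Ncoa4*, and *Fabp3* is a PPAR target called lower in *mdx*. Over all probe sets, limma called 12.0% between *mdx* and C57, 11.1% between treated and *mdx*, and 24.6% between treated and C57 mice. The *t*-test of the methods called 5.46%, 0.607% and 8.79% in the same order. Of 26 tested PPAR targets, genes of fatty acid uptake and oxidation, 10 were called lower and 1 higher in *mdx* than in C57. The list had 42.3% called, and its median difference was -0.30 against -0.01 over all probe sets. The lowest were *Plin5*, a lipid droplet protein of oxidative tissue, at -0.97 ± 0.21 (limma, adjusted p = 0.00979), *Ucp3*, a mitochondrial carrier, at -0.88 ± 0.24 (adjusted p = 0.0307), and *Mlycd*, which removes the malonyl-CoA that blocks fatty acid import, at -0.79 ± 0.12 (adjusted p = 0.00125). *Angptl4*, an inhibitor of lipoprotein lipase, was higher by 1.26 ± 0.35 (adjusted p = 0.037). In treated mice, 5 targets (19.2%) were higher than in *mdx* and none lower, and 8 (30.8%) were lower than in C57 and none higher. *Plin5*, *Ucp3* and *Mlycd* differed between treated and *mdx* mice by -0.01, -0.01 and -0.02, and between treated and C57 mice by -0.98, -0.89 and -0.81. The 5 higher targets, named after their values were seen, were the fatty acid transporter *Cd36* (0.98), *Ehhadh* (0.64), *Acadm* (0.60), *Acadl* (0.53) and *Lpl* (0.53).

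The *t*-test of the methods called 3 PPAR targets between *mdx* and C57, 0 between treated and *mdx* and 3 between treated and C57. The limma counts also moved with single mice. Leaving out 1 mouse left 4 to 10 PPAR targets lower in *mdx*, with 4 without C57 mouse 2, C57 mouse 3 or *mdx* mouse 4, 5 without C57 mouse 1 or *mdx* mouse 3, and 6 without *mdx* mouse 2. The 8 lower in treated mice than in C57 became 4 without C57 mouse 3 and 5 without C57 mouse 2. For treated against *mdx* mice the count higher went from 0, without *mdx* mouse 3 or 4 or treated mouse 1, 3 or 4, to 11 without treated mouse 2.

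Of 18 targets of PGC-1 and the oestrogen-related receptors, genes of mitochondrial biogenesis and respiration, 2 were lower in *mdx*, *Ucp3* again and *Cpt1b*, the muscle carnitine palmitoyltransferase (-0.30 ± 0.09, limma, adjusted p = 0.0406), and none was higher. The median was -0.14 in *mdx*, and the 11.1% called was near the 12.0% of all probe sets. Treated mice had 3 (16.7%) higher than *mdx*, named after their values were seen. They were *Gabpa*, a regulator of respiratory genes (0.70), the citrate cycle gene *Idh3a* (0.61) and *Acadm*. None was called in *mdx* without C57 mouse 2 or 3 or *mdx* mouse 2 or 4. The count higher in treated mice was 5 without treated mouse 2 and 1 without *mdx* mouse 3 or 4 or treated mouse 1, 3 or 4. The *t*-test of the methods called 0 in *mdx* and 0 in treated against *mdx* mice after adjustment.

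Of 11 LXR targets, genes of cholesterol efflux and lipid synthesis, 6 (54.5%) were higher in *mdx* and none lower, with a median of 0.48. *Apoe* was higher by 1.16 ± 0.20 (limma, adjusted p = 0.00252), *Scd2*, a fatty acid desaturase, by 0.76 ± 0.16 (adjusted p = 0.0103), and the cholesterol exporter *Abcg1* by 0.68 ± 0.18 (adjusted p = 0.0291). In treated mice *Apoe* was lower than in *mdx* (-0.68, adjusted p = 0.036), and *Abca1*, named after its value was seen, was higher by 0.39. Several of these genes are also abundant in macrophages, of whose markers 6 of 7 were higher in *mdx*, and the part of these cells was not tested. Without C57 mouse 2, only 1 LXR target was called in *mdx*, and 3 without C57 mouse 1 or *mdx* mouse 2. Without treated mouse 2, 6 were called lower in treated mice than in *mdx*. The *t*-test of the methods called 1 LXR target in *mdx* and 0 in treated against *mdx* mice.

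Of 21 glucocorticoid receptor targets, 2 were higher and 2 lower in *mdx*, or 19.0%. The metallothioneins *Mt2* and *Mt1* were higher by 2.47 ± 0.31 (limma, adjusted p = 0.000377) and 1.5 ± 0.31 (adjusted p = 0.0086). *Klf15*, a regulator of amino acid and lipid use, and *Cebpb* were lower, both with a difference of -0.69, with an adjusted p of 0.000344 and 0.0224. In treated mice, where *Nr3c1* was higher, 1 target was higher than in *mdx*, *Klf9* (0.39, named after its value was seen). In the same comparison 2 were lower, *Mt2* (-1.29) and *Mt1* (-1.07). The 14.3% called was near the 11.1% of all probe sets. *Klf9* was not called without *mdx* mouse 4 or treated mouse 3 or 4, and the count lower was 0 without *mdx* mouse 4 or treated mouse 1, 3 or 4, 1 without C57 mouse 2 or *mdx* mouse 3, and 3 without treated mouse 2. Against C57, 6 were lower and 1 higher, or 33.3%, with a median of -0.21. The lower count was 1 without C57 mouse 2 or 3, and 3 without treated mouse 1 or 3. The *t*-test of the methods called 2 in *mdx*, 0 in treated against *mdx* and 2 in treated against C57 mice.

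**Figure D5:**
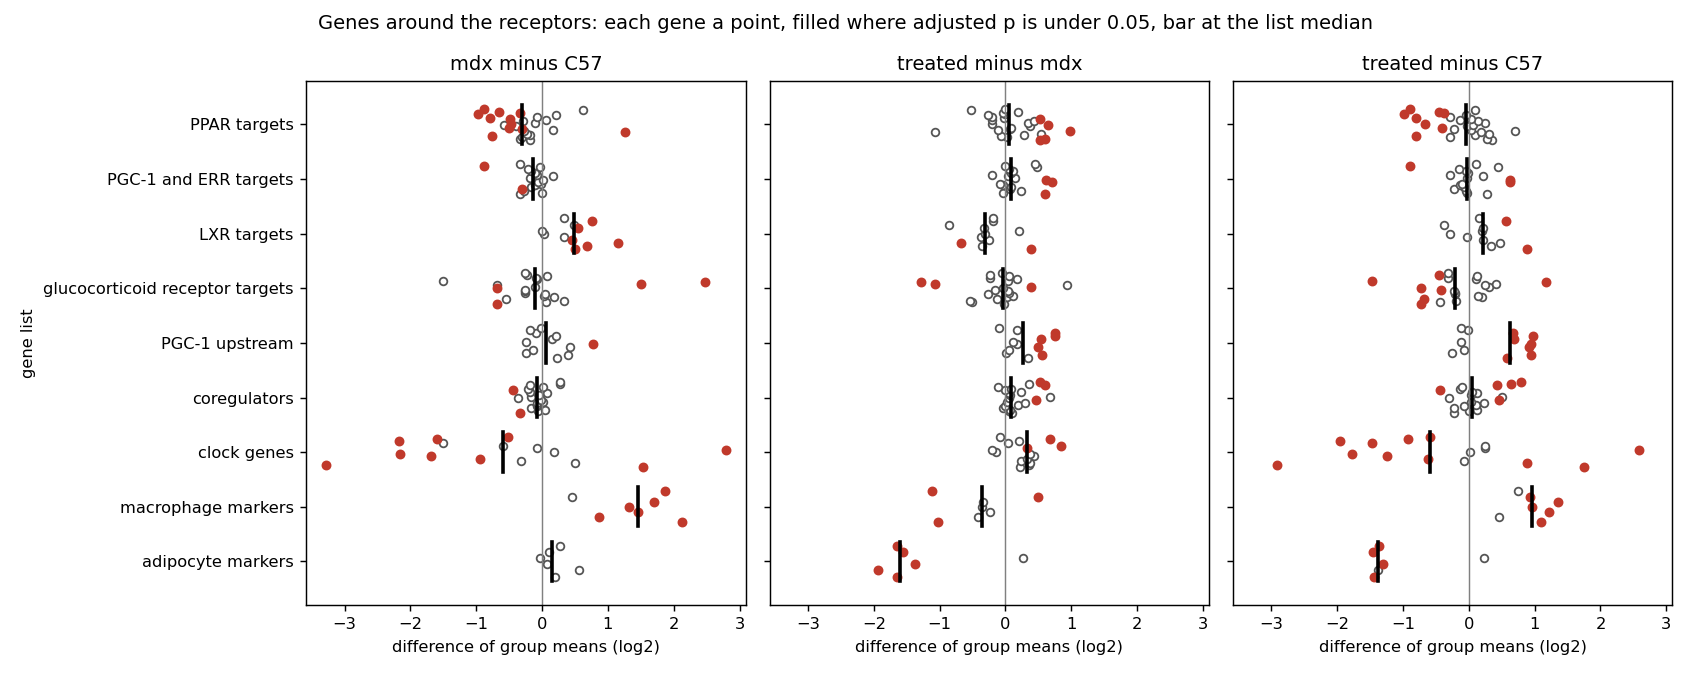
Difference of group means on the log2 scale (horizontal axis) for each tested gene of 9 lists (vertical axis) in the 3 comparisons; filled points have an adjusted p under 0.05 with limma, and the bar is the list's median. PPAR targets have a median of -0.30 in *mdx* against C57, LXR targets 0.48, and genes upstream of PGC-1 0.62 in treated against C57 mice.

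Of 12 genes upstream of PGC-1, the kinases, phosphatase and factors known to act on its promoter or protein, 1 was higher in *mdx*, *Mef2c* (0.77 ± 0.17, limma, adjusted p = 0.0115), and none lower. In treated mice 5 were higher than *mdx*, the AMP kinase subunits *Prkaa1* (0.76) and *Prkaa2* (0.76), *Creb1* (0.56), the calcineurin subunit *Ppp3ca* (0.54) and *Mef2a* (0.49), named after their values were seen. Against C57, 7 (58.3%) were higher, where 15.6% of all probe sets were. Their list had a median of 0.62, and the count was 7 with any 1 mouse left out. Against *mdx* the count was 1 to 6 with 1 mouse left out. It was 3 without *mdx* mouse 2, and 1 without *mdx* mouse 3 or 4 or treated mouse 1, 3 or 4. Without treated mouse 2 it was 6. The *t*-test of the methods called 2 against C57 and 0 against *mdx* after adjustment.

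Of 20 coregulators, 2 were lower in *mdx*: *Nrip1*, a corepressor of oxidative genes (-0.44 ± 0.12, limma, adjusted p = 0.0316), and the arginine methyltransferase *Carm1* (-0.34 ± 0.10, adjusted p = 0.0437). In treated mice 3 (15.0%) were higher than in *mdx*, named after their values were seen. They were the PGC-1α deacetylase *Sirt1* (0.60), *Tbl1xr1* (0.53) and *Ncoa2* (0.47). The count was 5 without treated mouse 2 and 1 without treated mouse 4. No coregulator was called in *mdx* without C57 mouse 1 or 2 or *mdx* mouse 1. The *t*-test of the methods called 1 coregulator in *mdx* and 0 in treated against *mdx* mice. Of 5 other nuclear receptors tested from 13, none was called between *mdx* and C57 with limma or the *t*-test of the methods, and 1 had an unadjusted p under 0.05 with limma. The lowest p-values were those of *Nr1d2* (-0.59, adjusted p = 0.0661) and *Rora* (-0.31, adjusted p = 0.256). In treated against *mdx* mice 3 were higher, *Nr1d2* (0.84), *Rora* (0.59) and *Nr1d1* (0.32), all of which act in the circadian clock. None was called without *mdx* mouse 3 or 4 or treated mouse 4, and 1 without treated mouse 1 or 3. The *t*-test of the methods called none of them.

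Genes that handle the ligands or respond to them form short lists. Of 10 retinoid handling genes, 1 was called in *mdx*, the retinol transporter *Stra6* (-0.61 ± 0.13, limma, adjusted p = 0.0107), and 1 between treated and *mdx* mice, *Rbp4* (-0.75, named after its value was seen). Of 5 genes tested from the thyroid hormone list, 3 were called in *mdx*, where 12.0% of all probe sets were. Of these, 2 were higher, among them *Thrsp* (0.51 ± 0.14, adjusted p = 0.0372), and *Crym*, which binds the hormone in the cytosol, was lower (-1.31 ± 0.28, adjusted p = 0.01). *Thrsp* responds to the hormone rather than handling it. It is also abundant in adipocytes, and was lower in treated mice than in *mdx* (-0.64). Without C57 mouse 3, neither *Stra6* nor *Crym* was called in *mdx*.

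*Nr4a1*, *Ppara* and the REV-ERB genes *Nr1d1* and *Nr1d2* are known to cycle over the day, and the clock itself differed between the groups. Of 15 clock genes, 7 were lower in *mdx*, the largest *Ciart* (-3.28 ± 0.28, limma, adjusted p = 2.54e-05), *Per2* (-2.17 ± 0.18, adjusted p = 2.14e-05) and *Hlf* (-2.16 ± 0.14, adjusted p = 3.34e-06). The 2 higher were *Npas2* (2.79 ± 0.13, adjusted p = 1.91e-07) and *Arntl* (1.53 ± 0.20, adjusted p = 0.000451). Treated mice differed from C57 in the same genes by -2.92, -1.96, -1.78, 2.59 and 1.75. The time of day at which the mice were killed is not given in the sources used here, and its part in these differences was not tested. Of 18 immediate-early genes, which like the NR4A genes respond within minutes to a stimulus, 4 were higher in *mdx*, among them *Egr1* (0.79 ± 0.20, adjusted p = 0.0244), *Fosl1* (0.79 ± 0.23, adjusted p = 0.046) and *Egr2* (0.77 ± 0.18, adjusted p = 0.0162), while *Nr4a1* was lower. That count was 0 without C57 mouse 1 or 2, 1 without *mdx* mouse 4, and 2 without *mdx* mouse 3 or treated mouse 1 or 3. The *t*-test of the methods called 0 immediate-early genes in *mdx*.

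The remaining marker lists are given for the cells that the sections could hold. All 6 regenerating-fibre markers were higher in *mdx* than in C57, with a summed intensity of 381 to 393 in C57 mice, 792 to 1338 in the *mdx* mice and 445 to 814 in those treated. Of 6 fibroblast markers, 2 were higher in *mdx* and 4 in treated mice than in C57. Of 6 slow and oxidative fibre markers, 2 were higher and 1 lower in *mdx*, and 2 higher and 1 lower in treated mice than in *mdx*. With 1 mouse left out these counts were 1 to 3 higher and 1 to 2 lower in *mdx*, with 1 higher without C57 mouse 2, and 0 to 2 higher and 0 to 3 lower in treated mice, with 0 called without treated mouse 4 and 3 lower without treated mouse 2. The part of any of these in the receptor results was not tested.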

How the data were processed

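The authors hybridised RNA of each mouse to its own array and deposited linear intensities, which Expression Console had made by RMA, with its background correction, quantile normalization and median polish. The deposited intensities were converted to log2 here. Annotation columns other than symbol, identifier and cross-hybridisation type were not used. The array's positions name no build and were not used.

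Testing covered the 14494 of 28350 probe sets (51.1%) whose mean intensity in some group was 30 or more. In R 4.3.3, limma 3.58.1 (lmFit, eBayes) fitted all 11 arrays with a mean per group, two-sided, with Benjamini-Hochberg adjustment over all probe sets tested; the threshold was 0.05. The methods of the study name a *t*-test, run as an alternative. Replicates are separate mice, so p-values measure the spread between these mice. Groups came from the labels. The fit was tested on simulated data. Tables and plots used Python 3.11.15, pandas 2.3.3, NumPy 2.4.6 and matplotlib 3.10.9.

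The members and lists were chosen with earlier results of these data known. Members called in any comparison are given in every mouse, and from each list up to 3 genes per direction with the largest difference among those called between *mdx* and C57, or the lowest p where none was. Some genes that this rule names are not reported here. Lists are described by counts and medians, without a set test. The lists were PPAR, PGC-1 and oestrogen-related receptor, LXR and glucocorticoid receptor targets, genes upstream of PGC-1, coregulators and other nuclear receptors. Others were retinoid and thyroid hormone genes, immediate-early and clock genes, and markers of adipocytes, macrophages, fibroblasts, endothelium and slow, fast and regenerating fibres. Member probe sets were matched through their symbol. A list gene without a probe set under its symbol was matched through its RefSeq identifier, found by symbol or synonym. All 38 members were found by identifier in RefSeq (GRCm38.p6).

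The alternatives were the *t*-test, a fit on only the arrays of both groups, weights per array, a robust prior with a trend, no filter or one of 100, centring on the median, quantile normalization applied again, averaged probe sets per gene, the replicate number as a block and leaving out each mouse. The second *Ppargc1a* probe set was added after seeing the data.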

Additional observations from a re-analysis of the deposited data

Results flagged for a closer look

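Among the 29 tested members in the 2 groups of 4 mice, 58 sets of values, 1 held a mouse set apart from its group. *Ppargc1a* read 7.01 in *mdx* mouse 4 and 7.66 to 7.77 in the other *mdx* mice. Chance would mark about 1 in 20 such sets, or 2.9 of 58.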

How the results depend on the processing

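Shares of all probe sets in the same setting are given in brackets. Between *mdx* and C57, 3 members were called [12.0%]; the count was 9 with array weights [23.3%], 5 with median centring [12.2%], 2 with the *t*-test of the methods [5.46%], of which 1 was among the 3, and 1 to 6 with 1 mouse left out, with 1 without C57 mouse 2 [6.92%] or *mdx* mouse 2 [8.43%] and 6 without treated mouse 2 [15.3%]. Between treated and *mdx* mice, 3 were called [11.1%], and 0 with the *t*-test of the methods after adjustment [0.607%]. At an unadjusted p under 0.05 there were 5 with the *t*-test and 8 with limma. The count was 8 with array weights [31.8%] and 2 to 10 with 1 mouse left out, with 10 without treated mouse 2 [28.3%]. It was 2 without treated mouse 1 [3.38%] or 3 [2.62%] or *mdx* mouse 4 [2.44%], and 3 without treated mouse 4 [1.86%]. Between treated and C57 mice, 8 were called [24.6%], 2 with the *t*-test [8.79%], 4 with only those groups in the fit [18.7%], 14 with array weights [45.2%] and 3 to 11 with 1 mouse left out, with 3 without C57 mouse 3 [13.1%] and 11 without treated mouse 2 [34.0%]. The cause was not tested. No called difference changed sign in any alternative. *Esrrb* and *Nr6a1* gave no value with a minimum intensity of 100.

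The replicate numbers do not pair the mice: deviations of mice with the same number correlated between -0.297 and 0.153. With the number as a replicate block, the counts were 2 [7.90%], 2 [3.44%] and 5 [16.1%] in the same order, and *Ppara* in *mdx* had a difference of -0.72 (adjusted p = 0.0613). Signal over background limits *Esrrb* and the 9 members not tested.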
